A study of Mus musculus with 3647 samples.

Results

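Ptgds, Apod, Trf, Hapln2 and Opalin are genes of mature oligodendrocytes, the glia that wrap axons in myelin, and they were selected on their levels in these data, which varied among such nuclei. They are 5 of the 23420 genes in each table. They were described in 27.1% of the 1687 nuclei of the table of the thalamic reticular nucleus (TRN), those with at least 4 of the 6 myelin genes Mag, Mog, Mobp, Cldn11, Cnp and Mal above 0, called gated nuclei here. The values that chose the 5 genes are those given below, so they are a description. Each sample is the RNA of 1 mouse nucleus, or of 1 recorded neuron, and the labels name no animal, genotype, strain or age. A group therefore counts as 1 sample, tests and standard errors are not given, and plates of 96 wells give only a descriptive spread.

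The gated nuclei came from 4 groups of plates. TRN plates sorted on a DNA dye without NeuN, a protein of neuronal nuclei, had 44.1% of their nuclei gated, over 13 plates. TRN plates sorted on the dye and NeuN had 7.17% (54 nuclei) over 8 plates, and plate ThrP26, of tissue labelled as adjacent to the TRN, gave 7 of 50. The adjacent-tissue plates with gpe or GPE in their names, taken as globus pallidus, were sorted on the dye alone and had 47.9% (91 nuclei) over 3 plates. The other tables hold nuclei of hippocampus, cortex and striatum, most of them sorted on GFP, and Patch-seq samples, which are TRN neurons aspirated after recording. No column of a table repeated another.

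Oligodendrocytes mature from precursors through newly formed cells to myelin-forming cells, and mature cells are not uniform. Ptgds encodes the lipocalin-type enzyme that makes prostaglandin D2, which is abundant in brain and cerebrospinal fluid. Opalin is a transmembrane protein of the oligodendrocyte. Apod is apolipoprotein D, a secreted lipocalin that carries small lipids. Trf is transferrin, the iron carrier that oligodendrocytes express. Hapln2, also called Bral1, is a link protein of the hyaluronan matrix at nodes of Ranvier.

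The label held in the gated nuclei. Of 16 oligodendrocyte genes not used by the gate, 14 were above 0 in at least 50% of them, among them the myelin protein gene Mbp in 98.03%. The 6 precursor markers were rarer, above 0 in 1.75% (Pdgfra) to 11.8% (Ptprz1) of gated nuclei, with a median of 5.68%. Cspg4 was above 0 in 2.84% of gated nuclei and in 2.03% of those outside the gate, so it did not tell the 2 apart. The 13 genes listed for newly formed cells were above 0 in 1.09% (Neu4) to 73.1% (Sirt2) of gated nuclei, with a median of 9.83% and 3 genes in over 50%. The 8 late genes ran from 54.8% (Anln) to 91.7% (Qdpr), with a median of 63.1%. At least 3 of 6 neuron markers were met by 85 gated nuclei, 51 of them among the 54 on NeuN-selected plates, and astrocyte and precursor lists by 24 and 15. Gated nuclei had a median of 2070.5 detected genes, against 4983 for all NeuN-selected nuclei and 5229 for the gated ones among those, so the NeuN-selected plates stand apart and values are given with and without them.

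All 5 genes lie on the minus strand in the GRCm38 annotation (mm10): Ptgds at chr2:25466709-25470046, Hapln2 at chr3:88021750-88027583, Trf at chr9:103204001-103230444, Apod at chr16:31296192-31314808 and Opalin at chr19:41061710-41077113. Each is protein coding, and only Trf overlaps another annotated gene, Gm20425, on the same strand, so its reads could be split between them. Because the genes varied together or in opposition among nuclei, promoters of 4 of them are shown, from RefSeq on GRCm38.p6. No promoter entry was found for Trf. Each promoter is 250 bases before and 50 bases after the start site, written 5′ to 3′ on the gene's strand. They lie at chr2:25469700-25469999 for Ptgds, chr19:41077064-41077363 for Opalin, chr16:31314759-31315058 for Apod and chr3:88027462-88027761 for Hapln2. For Ptgds the whole window, and for Hapln2 more than its last 50 bases, lies within the gene span given above. The RefSeq start sites of these genes are thus downstream of the annotated gene starts. Capitals mark matches on either strand to 2 motifs, CTGGNAC, of the kind bound by the myelin factor MYRF, and ACAAAG, of the kind bound by SOX factors.
Ptgds: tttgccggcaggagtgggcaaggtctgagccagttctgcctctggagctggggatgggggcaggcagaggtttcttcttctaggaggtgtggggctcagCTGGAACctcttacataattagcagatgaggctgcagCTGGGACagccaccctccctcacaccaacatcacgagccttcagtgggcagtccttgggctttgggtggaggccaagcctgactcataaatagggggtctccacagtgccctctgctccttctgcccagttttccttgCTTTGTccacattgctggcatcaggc
Opalin: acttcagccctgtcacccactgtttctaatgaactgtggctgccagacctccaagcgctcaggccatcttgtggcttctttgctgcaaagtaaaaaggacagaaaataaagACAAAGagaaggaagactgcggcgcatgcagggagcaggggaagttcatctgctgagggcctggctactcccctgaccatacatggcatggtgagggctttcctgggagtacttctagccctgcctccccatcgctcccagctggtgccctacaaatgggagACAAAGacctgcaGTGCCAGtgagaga
Apod: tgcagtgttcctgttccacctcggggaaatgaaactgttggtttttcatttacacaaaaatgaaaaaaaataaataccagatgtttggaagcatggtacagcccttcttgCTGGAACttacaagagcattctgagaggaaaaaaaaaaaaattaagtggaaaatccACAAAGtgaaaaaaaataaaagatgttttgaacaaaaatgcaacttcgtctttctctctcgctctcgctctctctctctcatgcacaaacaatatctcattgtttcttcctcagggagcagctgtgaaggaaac
Hapln2: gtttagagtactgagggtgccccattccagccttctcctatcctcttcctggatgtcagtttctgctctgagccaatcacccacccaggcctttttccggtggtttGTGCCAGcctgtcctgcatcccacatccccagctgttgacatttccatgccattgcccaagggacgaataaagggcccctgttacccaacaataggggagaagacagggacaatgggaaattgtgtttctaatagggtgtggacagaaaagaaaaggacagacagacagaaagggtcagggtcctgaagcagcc
CTGGNAC was found in 4 of these 4 promoters, and 19.3% of the 32851 promoters of the same length hold it. ACAAAG was found in 3 of 4, against 18.7% of all, and TATAAA in 0 of 4, against 13.6%. The matches do not divide these 4 promoters as the nuclei divide the genes: Ptgds, Opalin and Apod hold both motifs and Hapln2 only CTGGNAC. Trf could not be placed. A match is a run of letters, not a shown binding site.

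Ptgds and Opalin were at 0 in many gated nuclei and high in most others. Ptgds was above 0 in 74.9% of the gated nuclei (95% exact binomial interval 70.7% to 78.8%, counting error only), with a mean of 15957 TPM, a relative transcript abundance that corrects for gene length. It was at 0 in 25.1% of them, at 10 to 100 TPM in 1.75%, at 100 to 1000 TPM in 5.24% and above 1000 TPM in 67.9%. The highest nucleus had 120161 TPM. Opalin was above 0 in 59.4% (54.7% to 63.9%), with a mean of 1347 TPM. It was at 0 in 40.6%, at 10 to 100 TPM in 4.80%, at 100 to 1000 TPM in 16.2% and above 1000 TPM in 37.99%. Both genes thus had a block of nuclei at 0 and a block above 1000 TPM. In these libraries a value of 0 can also be a transcript that was missed.

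Trf, Apod and Hapln2 were found in more of the nuclei. Trf was above 0 in 98.3% (96.6% to 99.2%), with a mean of 13924 TPM and 94.8% of nuclei above 1000 TPM. Apod was above 0 in 95.9% (93.6% to 97.5%), with a mean of 3308 TPM and 75.6% above 1000 TPM. Hapln2 was above 0 in 84.5% (80.9% to 87.7%), with a mean of 1274 TPM and 46.7% above 1000 TPM. By mean TPM the order was Ptgds, Trf, Apod, Opalin and Hapln2; Ptgds and Trf, and likewise Opalin and Hapln2, lay closer than the SD over nuclei of either gene (21424 and 9797 TPM, 1969 and 1406 TPM). Together the 5 genes took a median of 3.26% and at most 13.8% of a gated nucleus's TPM. With the nuclei that met the neuron list left out, the means were 16886 TPM for Ptgds (above 0 in 72.4%), 15780 TPM for Trf (99.7%), 3714 TPM for Apod (97.1%), 1523 TPM for Opalin (61.1%) and 1431 TPM for Hapln2 (87.9%). All 5 were above 0 in 43.5% of gated nuclei, 4 of them in 31.4% and 3 in 21.4%.

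**Figure D1:**
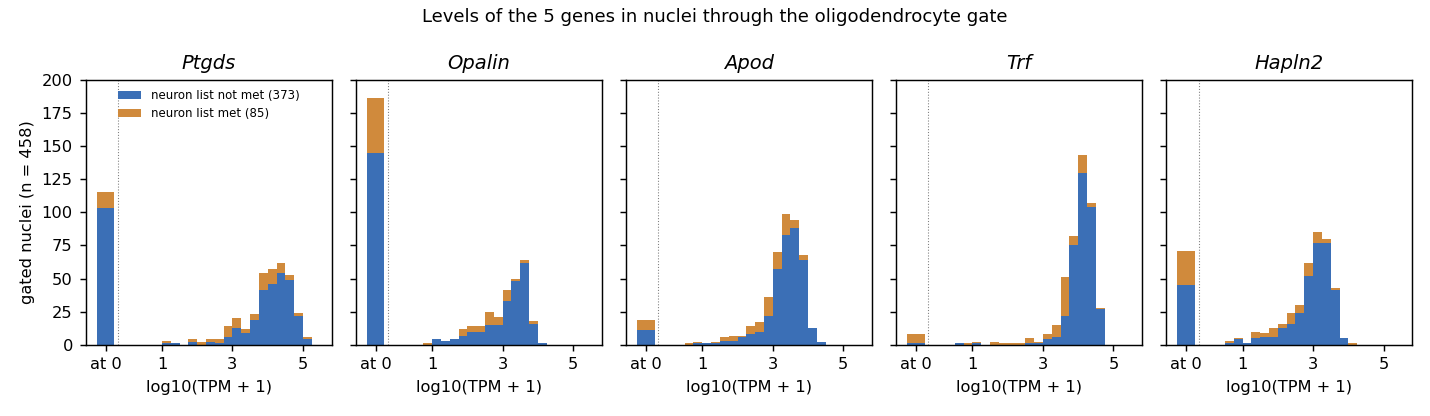
Histograms of log10(TPM + 1) in the gated nuclei, a panel per gene, with nuclei at 0 in a bar of their own at the left; blue nuclei did not meet the neuron marker list and orange ones (85) did. Ptgds and Opalin have tall bars at 0 (25.1% and 40.6% of nuclei) apart from a second peak, while Trf has 8 nuclei at 0.

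The spread of Ptgds was the widest of the genes measured. Its SD over gated nuclei was 6.11 on the log2(TPM + 1) scale, rank 1 of the 7800 genes found in at least 10% of them, and that of Opalin was 5.26, rank 4. The SD of Hapln2 was 4 and that of Apod 2.88, rank 2942, and of Trf 2.43, rank 4624. The bimodality coefficient is 0.556 for a flat distribution and can be higher where values are split or only have a long tail. It was 0.852 for Ptgds, 0.823 for Opalin, 0.798 for Hapln2, 0.758 for Trf and 0.711 for Apod. It was above 0.556 for 96.4% of the 7800 genes, so passing that mark says nothing about these 5. Among genes found in a like share of nuclei, within 5 percentage points, the coefficient of Ptgds stood above 98.01% of them and that of Opalin above 94.8%. Counting nuclei above 0 alone, the coefficients were 0.534 for Ptgds, 0.578 for Opalin and 0.512 to 0.598 for the other 3. With nuclei that met another class list left out, Trf was at 0.386. Over the 15 plates without NeuN selection, between 3.55% (Opalin) and 7.18% (Apod) of the variance lay between plates. The NeuN-selected plates were left out of these shares but not of the SDs above. On the log2(TPM + 1) scale Trf averaged 10.25 in NeuN-selected and 13.43 in unselected TRN gated nuclei, and Ptgds 10.12 and 10.05.

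Mean levels rose across the gate's threshold and again within the gate. Nuclei with 3 gate genes, just outside, were 42, with a mean of 201.9 TPM for Ptgds and 6.84 TPM for Opalin; the 24 with 4 gate genes, just inside, had 5083 and 288.8 TPM, and those with all 6 had 16812 and 1408 TPM. Of the gated nuclei, those with 4 gate genes had a median of 4948 detected genes, and those with 6 had 2067.

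Outside the gate the 5 genes were low. Ptgds averaged 15957 TPM in gated nuclei, against 85.6 TPM in GABAergic neurons, 217.7 TPM in astrocytes and 226.8 TPM in glutamatergic neurons. Trf averaged 13924 TPM in gated nuclei, against 54.2, 48.8 and 48.5 TPM in those 3 classes. Apod averaged 3308 TPM, against 15.04, 2.78 and 16.6 TPM. Opalin was above 0 in 59.4% of gated nuclei and in 1.12% of GABAergic neurons, and was listed at 0 in every astrocyte, which allows a share of nuclei with the transcript found of up to 2.70%, counting 3 nuclei for a count of 0 (the exact 95% interval ends at 3.27%). These classes had at least 3 of 6 listed markers and met no other list; gated nuclei had a median of 2070 detected genes, GABAergic neurons 4713, glutamatergic neurons 4832 and astrocytes 2162. Ptgds differed from the other 4 in neurons: 46.6% of glutamatergic neurons had it above 0, against 16.7% of GABAergic neurons at similar numbers of detected genes and 11.7% of astrocytes at fewer. For Trf these shares were 14.6% and 17.95%. On unselected TRN plates alone the Ptgds shares were 39.3% of 28 glutamatergic and 10.3% of GABAergic neurons, and on NeuN-selected plates 53.4% of 58 glutamatergic and 20.7% of GABAergic neurons. A single fibroblast-like or mural nucleus had 10254 TPM of Apod and 2752 TPM of Trf, and 9 microglia averaged 614.6 TPM of Trf.

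**Figure D2:**
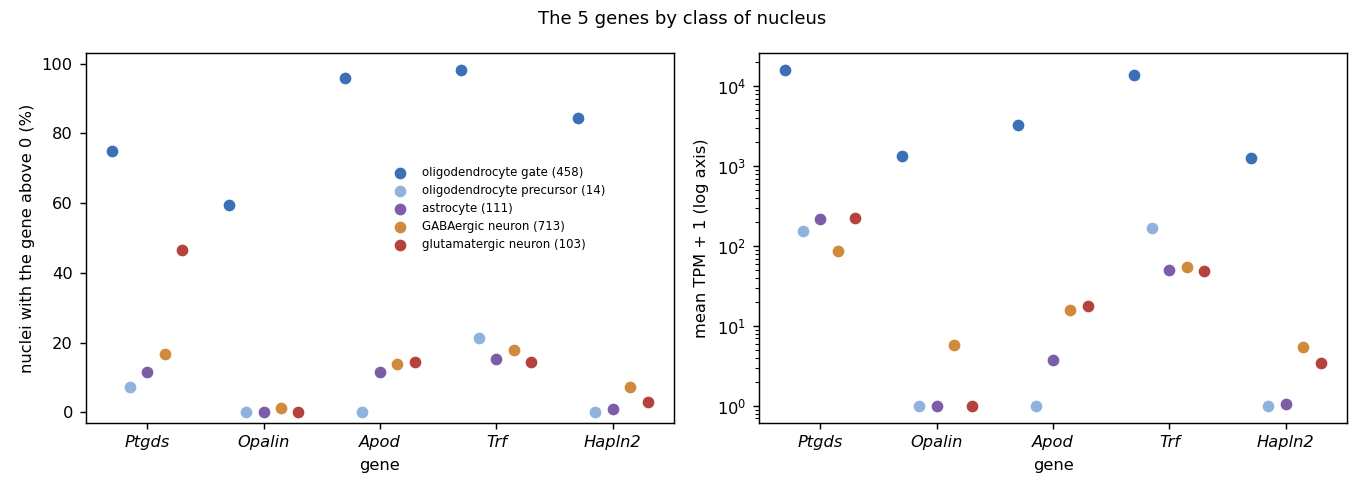
Share of nuclei with each gene above 0 (left, percent) and mean TPM + 1 (right, log axis) in the gated nuclei and in 4 classes outside the gate, with the number of nuclei in the legend. Gated nuclei are highest for each gene, and glutamatergic neurons stand above the other classes outside the gate in the share for Ptgds (46.6%).

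Within plates the 5 genes fell into 2 sets, and the opposition between them was mainly that of Ptgds. Spearman's rho across the gated nuclei of a plate was averaged over the 17 plates with at least 10 of them (12 unselected TRN, 3 globus pallidus and 2 NeuN-selected). Ptgds and Opalin had a mean rho of 0.513, positive on 17 of 17 plates, from 0.166 to 0.864. Apod and Trf had a mean of 0.518 (0.234 to 0.928), Apod and Hapln2 0.496 (0.0793 to 0.815) and Trf and Hapln2 0.424 (0.0759 to 0.770), all positive on 17 of 17 plates. Across the sets, Ptgds had a mean rho of -0.433 with Apod, -0.420 with Hapln2 and -0.398 with Trf, each negative on 16 of 17 plates. Opalin was less opposed: -0.227 with Apod, -0.182 with Hapln2 (both negative on 14 plates) and -0.111 with Trf (negative on 10). The 5th percentile of rho with Opalin over 3182 genes was -0.15. On the 2 NeuN-selected plates these pairs averaged 0.179, 0.124 and 0.115. By comparison, 3.16% of 15910 gene and member pairs, over genes found in at least 25% of gated nuclei, had a mean rho of 0.2 or more in size. The members were chosen with such values known, so these are descriptions, and nuclei of a plate share a library preparation.

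Shares of nuclei show the same division for Ptgds and Opalin. Both were above 0 in 52.8% of gated nuclei and both at 0 in 18.6%, Ptgds alone was above 0 in 22.1% and Opalin alone in 6.55%. Unrelated genes with these shares would be above 0 together in 44.5%. Ptgds and Hapln2 were above 0 together in 60.7%, against 63.3% if unrelated. Where Ptgds was at 0, Apod was above 0 in 95.7% of nuclei and Trf in 97.4%, near their shares over all gated nuclei (95.9% and 98.3%). Since Apod and Trf were above 0 in nearly all gated nuclei, shares could hardly show an opposition of Ptgds to them. In the same nuclei Hapln2 was above 0 in 94.8%, against 84.5% over all gated nuclei, and Opalin in 26.1%, against 59.4%.

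**Figure D3:**
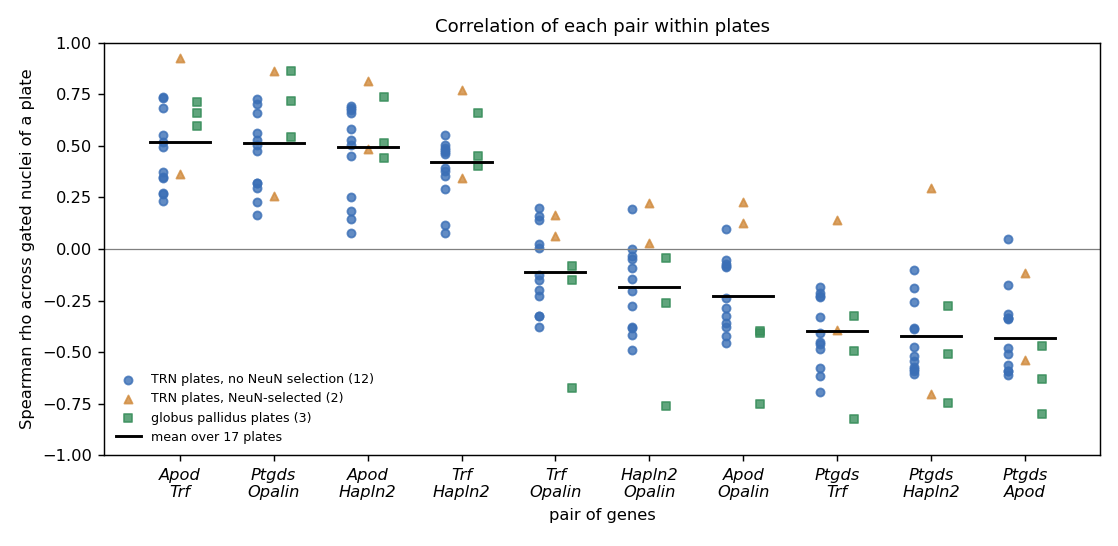
Spearman's rho of each of the 10 pairs across the gated nuclei of each plate (points, 17 plates, by group) with the mean over plates (black line), ordered by the mean. The first 4 pairs are positive on 17 of 17 plates, and the last 3, Ptgds with Trf, Hapln2 and Apod, are negative on 16.

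**Figure D4:**
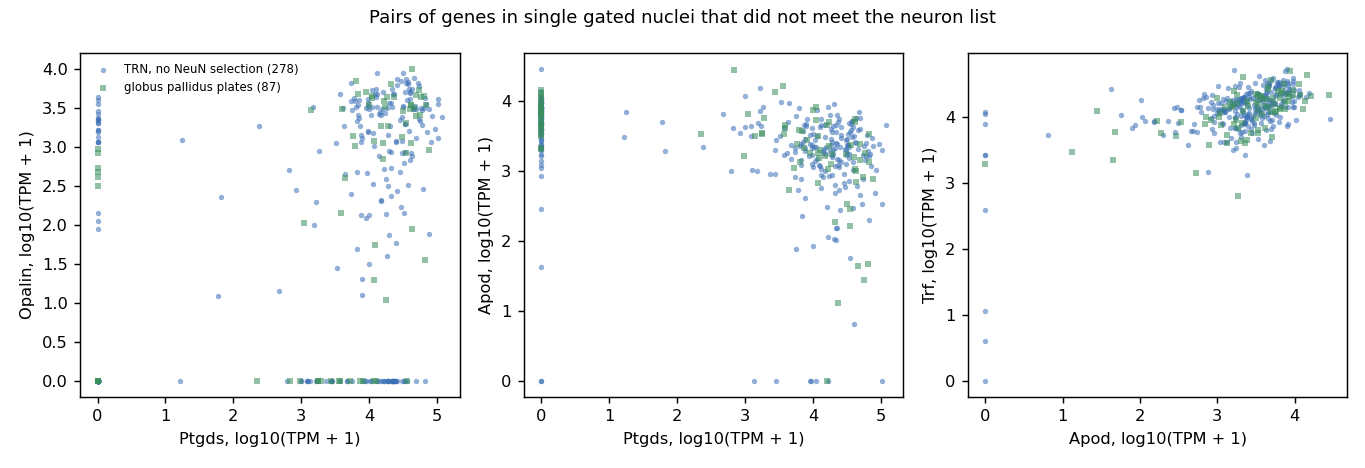
Log10(TPM + 1) of Opalin against Ptgds, Apod against Ptgds and Trf against Apod in single gated nuclei of unselected TRN plates (circles) and globus pallidus plates (squares) that did not meet the neuron list. Nuclei at 0 for Ptgds lie at high Apod, and nuclei at 0 for both Ptgds and Opalin share the origin of the first panel.

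The number of detected genes had a mean rho of -0.284 with Ptgds, -0.260 with Opalin, 0.117 with Apod, 0.133 with Trf and 0.122 with Hapln2, so the number of detected genes varied with the sets in opposite directions, and its part in the levels was not tested. Ptgds was above 0 in 92.6% of the 54 gated nuclei with the fewest detected genes and in 70.4% of those with more than 2500, and Opalin in 70.4% and 45.2%. Given the number of detected genes, the mean rho was 0.455 for Ptgds and Opalin, -0.407 for Ptgds and Apod and 0.499 for Apod and Trf. With TPM rescaled after leaving out the 5 members and the mitochondrial genes it was 0.523, -0.420 and 0.518. Without the 2 NeuN-selected plates it was 0.507, -0.447 and 0.501. Including nuclei with 3 gate genes brought Ptgds with Apod to -0.158 and Ptgds with Trf to -0.143.

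Other genes sorted with the same 2 sets. Of 3182 genes ranked by mean rho with Ptgds, the 5 highest were Apoe (0.520), the apolipoprotein E gene, Il33 (0.515), an interleukin of the nucleus, Opalin, Gstp1 (0.505), a glutathione transferase, and Cd9 (0.475), a tetraspanin. Each was positive on 17 of 17 plates. The lowest were S100b (-0.493), a calcium-binding protein, and Sepp1 (-0.468), the selenium carrier. Il33, Apoe, Gstp1 and Cd9, in that order, also followed Ptgds as the genes most like Opalin, at 0.379, 0.358, 0.339 and 0.338. The genes most like Apod were Trf, Anln (0.509), the cytoskeletal protein anillin, Hapln2, Sepp1 (0.484) and S100b (0.416). For Trf they were Apod, Gsn (0.477), the actin-severing gelsolin, Sepp1 (0.452), Gjb1 (0.448), the gap junction protein connexin 32, and Hapln2. For Hapln2 they were Apod, Sepp1 (0.432), Trf, S100b (0.383) and Anln (0.371). At the other end, after Ptgds, stood Sema6d for Apod (-0.312), AI593442 for Trf (-0.286) and Cd9 for Hapln2 (-0.306), and Sepp1 (-0.325) and S100b (-0.316) for Opalin. The median over all ranked genes was -0.0386 for Ptgds and 0.00157 for Apod.

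The listed gene groups differed in how they lay with the 2 sets. Of 8 late mature oligodendrocyte genes, Il33, Qdpr (0.377), Cryab (0.318), Car2 (0.140) and Grm3 (0.00807) had positive mean rho with Ptgds, and Anln (-0.462), Gsn (-0.353) and Sepp1 (-0.468) negative; the median was 0.0738, against -0.0349 over all genes found in at least 10% of gated nuclei. With Apod the same list had 4 of 8 positive and a median of 0.0320. Of 13 genes of newly formed oligodendrocytes 6 could be measured, and Enpp6, a choline phosphodiesterase, stood apart at -0.484 with Ptgds, -0.328 with Opalin and 0.371 with Hapln2. Of 15 myelin membrane genes, 14 were positive with Trf (median 0.160), 12 with Apod and 6 with Ptgds (median -0.00648); 45% of all genes were positive with Apod and 30% with Ptgds. Cd9 and Gjb1 bounded that list in opposite directions, with 0.475 and -0.349 for Ptgds. Of 13 listed prostaglandin genes in the table, a list without Ptgds itself, 3 could be measured, and their mean rho with Ptgds ran from -0.0435 (Ptges3) to 0.0166 (Hpgds, the other prostaglandin D synthase). Of the 7 measured iron-handling genes 6 were positive with Trf, against 42.9% of all genes, but apart from Fth1, the ferritin heavy chain, at 0.315, none was above 0.0532 (Ireb2). Of 9 node, paranode and matrix genes 3 were positive with Hapln2, and likewise 3 with Apod and 3 with Trf, against 44.6% of all genes with Hapln2. The lowest was Cntn1 at -0.235, and the other link protein measured, Hapln4, was at -0.145, over 12 plates. Hapln4 was above 0 in 12.2% of gated nuclei, in 1.34% of those not meeting the neuron list and in 66.4% outside the gate. For Cntn1 these shares were 24.2%, 12.6% and 83.4%. The part of neuronal transcripts in these rho values was not tested. Of 3 lipid carriers measured, Apoe was at 0.520 with Ptgds and -0.281 with Apod. Of 12 cholesterol synthesis genes 11 were positive with Trf, 10 with Apod and 9 with Hapln2, and 5 with Opalin and 3 with Ptgds, with medians of 0.0748 for Trf and -0.0606 for Ptgds. The 3 early response genes measured were positive with Ptgds, from 0.0357 (Jun) to 0.148 (Dusp1), and with Opalin, and 1 of them was positive with Trf and 0 with Apod and Hapln2. Beside the counts of these last 2 lists, the shares of all genes that were positive were 42.9% with Trf, 45% with Apod and 44.6% with Hapln2. They were 29.1% with Opalin and 30% with Ptgds, so the cholesterol counts for Opalin and Ptgds do not show an opposed direction.

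TRN plates were set against globus pallidus plates as the mean over plates of plate means of log2(TPM + 1), over 12 TRN plates and 3 globus pallidus plates. Ptgds averaged 9.998 ± 1.499 in TRN plates (SD over plates, 7.47 to 12.76) and 8.63 ± 2.63 in globus pallidus plates, a difference of 1.37. The 3 globus pallidus plates, gpe_23, gpe_25 and X012116_GPEp24, stood at 11, 9.09 and 5.81, so 2 of them lay inside the TRN range and the third below it. Opalin averaged 6.21 ± 0.84 in TRN plates and 5.26 ± 2.37 in globus pallidus plates, with those 3 plates at 7.22, 5.92 and 2.63. On X012116_GPEp24 6 of 15 gated nuclei had Ptgds above 0 and 4 had Opalin. Without that plate the difference was -0.0448 for Ptgds and -0.362 for Opalin. Within plates named X012116, where X012116_GPEp24 is the single globus pallidus plate, the differences were 4.08 and 3.38, and within plates with lower-case names (trn_10 against gpe_23 and gpe_25) 0.751 and 0.434.

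Of the other 3 genes Hapln2 was higher in TRN plates and Apod and Trf lay close in the 2 tissues. Hapln2 averaged 8.73 ± 0.89 in TRN plates and 7.74 ± 0.46 in globus pallidus plates, a difference of 0.99, and was above 0 in 89.4% of TRN and 76.9% of globus pallidus nuclei; leaving out any plate kept the difference between 0.784 and 1.24, while with the nuclei of fewest detected genes left out it was 0.0459. Apod averaged 10.91 ± 0.80 in TRN plates and 10.95 ± 0.53 in globus pallidus plates, and Trf 13.50 ± 0.50 and 13.47 ± 0.69, differences of -0.05 and 0.03. Of 6413 genes, 0.733% were at least 1 higher and 3.21% at least 1 lower in TRN plates. Ptgds was the only member past that mark, and as a log2 ratio of mean TPM its difference was 0.180. The plate ranges of the 2 tissues overlapped for all 5 members and were apart for 0.655% of genes. Ptgds and Opalin had a mean rho of 0.457 in TRN plates and 0.707 in globus pallidus plates, where gpe_23, gpe_25 and X012116_GPEp24 stood at 0.541, 0.717 and 0.864. Ptgds and Apod had a mean rho of -0.400 in TRN plates and -0.635 in globus pallidus plates, and for both pairs the ranges overlapped. The mean rho was larger in size in globus pallidus plates for 10 of 10 pairs, a count that includes X012116_GPEp24 with its 15 gated nuclei. For Ptgds and Hapln2 those 3 plates stood at -0.277, -0.508 and -0.748, against a TRN mean of -0.433. For Hapln2 and Opalin they stood at -0.0424, -0.260 and -0.763, against -0.189. The count without X012116_GPEp24, and the share over other gene pairs, are not given. Late mature genes went both ways, with Il33 at 2.08 and Gsn at -1.23. The medians of detected genes were 1997.5 in TRN and 2194 in globus pallidus nuclei. The choroid plexus transcript Ttr, transthyretin, averaged 1.53 in TRN plates and 0 in globus pallidus plates on the same scale. Among TRN plates it averaged 0 in those named X012116 and 4.59 in those named X083116, a set without a globus pallidus plate. Its tissue difference thus cannot be told apart from the plate set. Kl and Folr1, the other 2 genes of its list, were above 0 in 3.93% and 0.655% of gated nuclei. The part of such transcripts in the Ptgds value was not tested.

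**Figure D5:**
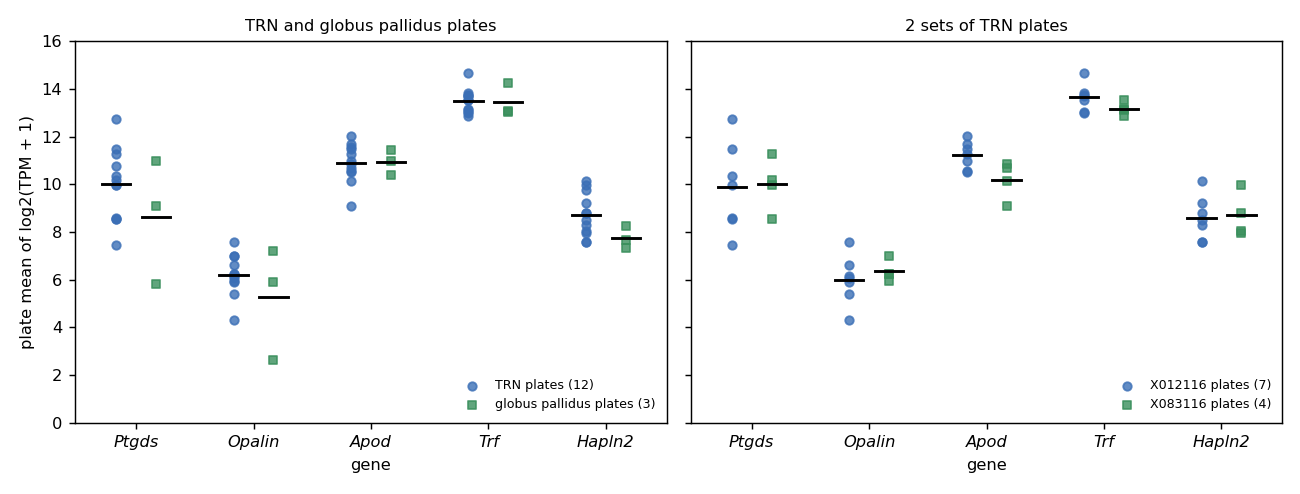
Plate means of log2(TPM + 1) for each gene in gated nuclei, for TRN (circles, 12) and globus pallidus plates (squares, 3) at the left and for X012116 (circles, 7) and X083116 plates (squares, 4) at the right; black lines are means over plates. A single globus pallidus plate lies low for Ptgds (5.81) and Opalin (2.63), and Apod is higher in X012116 plates.

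Unselected TRN plates came mostly from sets whose names begin X012116 (7 plates) and X083116 (4 plates), with median detected genes of 1991 and 1985. Apod averaged 11.22 ± 0.57 in X012116 plates and 10.19 ± 0.80 in X083116 plates, a difference of 1.04, the only member past 1. The X012116 plates ran from 10.53 to 12.05 and the 4 X083116 plates stood at 10.86, 10.68, 10.13 and 9.09, so the ranges overlapped; as a log2 ratio of mean TPM the difference was 0.772, and without plate X083116P4 it was 0.669 on the scale of plate means. Trf averaged 13.65 ± 0.56 in X012116 plates and 13.18 ± 0.27 in X083116 plates, a difference of 0.47. Ptgds (-0.12), Hapln2 (-0.11) and Opalin (-0.35) differed by less than the SD over plates of either set. On mean TPM over nuclei Ptgds lay the other way, with 21174 TPM in X012116 plates and 12799 TPM in X083116 plates. Of 6350 genes 5.69% were at least 1 higher and 2.65% at least 1 lower in X012116 plates, and 2.71% had plate ranges apart, none of them a member. The connexin gene Gjb1 differed by 2.39, Apoe by 1.84 and Ttr by -4.59, with Ttr listed at 0 in all X012116 plates; the part of these in the Apod value was not tested. For Ptgds and Opalin the mean rho was 0.593 (0.473 to 0.728) in X012116 plates and 0.276 (0.166 to 0.320) in X083116 plates. Of the 10 pairs it was the only one whose ranges did not overlap. These X012116 plates had 14 to 27 gated nuclei each and the X083116 plates 30 to 40, and the part of this in rho was not tested. Shares over other gene pairs are not given. The mean rho was larger in size in X012116 plates for 10 of 10 pairs, so this direction was not particular to Ptgds and Opalin.

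Mean levels of all 5 genes were lower in gated nuclei of NeuN-selected plates, while Ptgds was found in a larger share of them. Apod averaged 1138.1 TPM in the 54 NeuN-selected gated nuclei and 3424 TPM in the unselected ones, Trf 4547 and 15342 TPM, Hapln2 294.8 and 1456 TPM and Opalin 284.3 and 1487 TPM. Ptgds averaged 10566 TPM in NeuN-selected and 17059 TPM in unselected gated nuclei, and was above 0 in 83.3% and 74.8%. The neuron list was met by 94.4% of NeuN-selected and 9.15% of unselected gated nuclei, and the summed gate genes had medians of 4929 TPM in NeuN-selected and 26219 TPM in unselected ones; whether these libraries held more than a single nucleus was not tested. On plate ThrP26, 5 of the 7 gated nuclei had Ptgds above 0, 3 had Opalin, and all 7 had Apod, Trf and Hapln2.

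Nuclei outside the TRN table showed some of the same pairs. In the table of hippocampal, cortical and striatal nuclei 68 passed the gate, 57 of them also meeting the neuron list, with a median of 4616 detected genes. Ptgds was above 0 in 85.3% of them (mean 5149 TPM), Trf in 98.5% (2737 TPM), Apod in 79.4% (580.9 TPM), Hapln2 in 76.5% (380 TPM) and Opalin in 57.4% (546.8 TPM). Here rho was pooled over regions and plates, unlike the means within plates of the TRN table, so the 2 are not like measures. Across these 68 nuclei rho was 0.418 for Ptgds and Opalin, 0.415 for Apod and Trf, 0.312 for Apod and Hapln2, 0.274 for Trf and Hapln2, -0.245 for Ptgds and Apod and -0.143 for Ptgds and Hapln2. Pairs that were opposed in the TRN table and not here were Ptgds and Trf at 0.271 (0.0436 given the number of detected genes), Trf and Opalin at 0.339 (0.265) and Apod and Opalin at 0.0276. Among the genes like Ptgds, Apoe was at 0.377 with it, Cd9 at 0.312 and Gstp1 at 0.284, but Il33 at 0.0288; Sepp1 was at -0.364 and S100b at -0.0302. In the 11 nuclei without the neuron list, Ptgds was above 0 in 11 with a mean of 16992 TPM, and Opalin in 10. Across these 11 rho was 0.473 for Ptgds and Opalin, 0.358 for Apod and Trf, 0.077 for Apod and Hapln2 and -0.495 for Ptgds and Apod. Trf and Hapln2, at -0.0572, and Ptgds and Hapln2, at 0.162, had the other sign than across the 68. Of the 95 Patch-seq samples 14 passed the gate, with a median of 9586 detected genes, against 5989 in the other 81. Ptgds was above 0 in 50% of those that passed (mean 740 TPM) and in 45.7% of the others (94.1 TPM), and Opalin was above 0 in 1 and 2 samples.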

How the data were processed

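Per the labels' protocols, a sucrose gradient and flow sorting gave single nuclei, and libraries followed a changed Smart-seq2 method; the submitters' processing notes name RSEM, Bowtie, TopHat2 2.0.10, Seurat 2.2.0 and build mm10, with no role or order. The authors deposited TPM for non-TRN nuclei (871 columns) and Patch-seq samples (95). For the TRN table the authors deposited natural log values of 1 plus TPM times a factor per nucleus (0.288 to 6.03, median 0.777), as the values show: with the log undone and columns rescaled to 1000000, 236907 of 236907 values under 2 TPM lay within 0.1 steps of a multiple of 0.01. Since TPM hold no read number, the depth is unknown; the number of detected genes is given instead. Intervals cover counting error only. Of 3647 labelled samples 2653 had values; the other 994 were not analysed here.

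Differences are mean log2(TPM + 1) of plates with at least 10 gated nuclei, with genes found in at least 10% of nuclei and a difference of 1 taken as the mark. Doublets were not called. The members, lists and tests were chosen with earlier results of these data known. Named genes were the members, the 5 highest and 2 lowest by mean rho among genes in at least 25% of gated nuclei, and the extremes of each list, some of which are not reported here. The alternatives were other gates, scalings, pseudocounts, plate minimums and leaving out plates. The computation used scipy 1.17.1, pandas 2.3.3, numpy 2.4.6 and matplotlib 3.10.9 under Python 3.11.15, and the functions were tested on simulated data.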

Additional observations from a re-analysis of the deposited data

How the results depend on the processing

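No paired analysis was possible because the results come from no test; differences within plate sets are given instead. Other than in leaving out a plate, 45 of 45 detected shares and 70 of 70 X012116 minus X083116 differences moved by less than the SD over plates, and 12 of 40 bimodality coefficients moved by more. Of the pair correlations 2 moved by more than that; with 3 or more gate genes rho was -0.158 for Ptgds and Apod and -0.143 for Ptgds and Trf, and the cause was not tested. The TRN minus globus pallidus difference was 0.0459 for Hapln2 without the nuclei of fewest detected genes; within X012116 plates it was 4.08 for Ptgds, 3.38 for Opalin and -0.610 for Trf; within lower-case-named plates it was 0.881 for Apod, 0.644 for Trf and 1.97 for Hapln2. Leaving out a plate moved it between -0.0448 and 2.55 for Ptgds and between -0.362 and 1.94 for Opalin, the lowest values being those without X012116_GPEp24. With a pseudocount of 10 0.156% of genes were at least 1 higher and 0.343% lower in TRN plates, and 1.46% higher and 0.567% lower in X012116 plates. As log2 ratios of mean TPM these shares were 10.9% and 6.08% in TRN plates, and 8.11% and 12.9% in X012116 plates. With 3 globus pallidus plates, 1 of them decides the Ptgds value, and missed transcripts cannot be told from absent ones.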
